A study of Mus musculus with 36 samples.

Results

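The microRNAs miR-103-2-3p and miR-107-3p (mmu-mir-103-2-3p and mmu-mir-107-3p in the deposited table) were described together with Pank1 and Pank3, genes of the pantothenate kinase family whose introns carry miRNAs of this group. The members were chosen by name: 2 of the 2670 entries of a small RNA table and 2 of the 27998 genes of a pair of single-cell matrices, 4 features of 30668 in all. The small RNA libraries came from FACS-sorted cells of the small intestine of C57BL6/2J mice and were made with the TriLink CleanTag kit. They fall into 8 populations with values: Lgr5 High (n = 2), Sox9 High, Sox9 Low, Sox9 Negative, CD24Low and Goblet (n = 4 each), Paneth (n = 6) and Tuft (n = 3). The labels give these mice no treatment, age, transgene or allele, and do not say how the sort read Sox9 or Lgr5. One label differs inside each Sox9 fraction: sample number 3 carries the code HFD where the others carry chow, and the labels do not say what the codes mean. Pank1 and Pank3 were read in 2 10x Genomics libraries of separated intestinal cells from 12-month-old wild-type mice, which hold 2614 cells with the authors' own cell type names. Nothing in the labels says which libraries are different animals. The p-values here therefore rest on the variation among libraries, which may be technical.

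miRNAs are short RNAs that an Argonaute protein carries to messenger RNAs, most often by pairing through the seed, bases 2 to 8 from the 5′ end. miR-103 and miR-107 are a classic case of intronic miRNAs: their hairpins lie inside pantothenate kinase genes and can be cut out of the host's own transcript. Pantothenate kinases carry out the first and rate-limiting step of coenzyme A synthesis from vitamin B5, and miR-103 and miR-107 are known in mouse for effects on lipid and glucose metabolism and for lowering Dicer. In the small intestine, stem cells at the crypt base give rise to dividing progenitors, and these to absorptive enterocytes and to secretory Paneth, goblet, enteroendocrine and tuft cells.

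The mature sequences, from RefSeq on GRCm38.p6, are shown because the 2 miRNAs differ by a single base and because 2 genes give the same miR-103. Capitals mark the seed.
miR-103-3p (from Mir103-2 and from Mir103-1): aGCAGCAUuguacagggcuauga
miR-107-3p: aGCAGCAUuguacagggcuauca
Counted from the 5′ end of miR-103-3p, the difference is G22C, and the 21 bases before it are identical. Both therefore carry the seed GCAGCAU, and reads that end before base 22 cannot be told apart by sequence.

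The hairpins are shown because they place each miRNA in its host, with the mature strand in capitals.
Mir103-2: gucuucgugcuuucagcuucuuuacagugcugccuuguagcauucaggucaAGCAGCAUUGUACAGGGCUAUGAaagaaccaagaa
Mir103-1: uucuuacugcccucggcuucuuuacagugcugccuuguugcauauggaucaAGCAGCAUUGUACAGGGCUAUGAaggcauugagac
Mir107: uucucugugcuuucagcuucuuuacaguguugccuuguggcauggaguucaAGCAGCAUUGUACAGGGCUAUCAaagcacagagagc
On GRCm38, Mir107 lies at chr19:34820687-34820773 on the minus strand, in intron 5 of the 7-exon transcript Pank1-201. Mir103-1 lies at chr11:35782396-35782481 on the plus strand, in intron 5 of the 7-exon transcript Pank3-201. The table's entry miR-103-2-3p is named for Mir103-2, at chr2:131288052-131288137 on the plus strand, and this hairpin lies in intron 5 of the 7-exon transcript Pank2-204, not in Pank3. All 3 hairpins lie on the strand of their host and overlap none of its exons. Pank2 was therefore read beside Pank1 and Pank3.

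The 2 genes for miR-103 could not be separated in the small RNA data. The value of miR-103-2-3p divided by that of miR-103-1-3p lay between 0.984 and 1.06 in all 31 libraries, as reads of 1 mature sequence counted at both loci would give. A level of miR-103 is therefore a level of both copies and belongs to neither host alone. The table's values are reads divided by 1 factor per library, set by the authors, and are called deposited values below.

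miR-103-2-3p was highest in the Sox9 Negative cells and lowest in the Tuft cells. Its deposited values in the 4 Sox9 Negative libraries were 30234, 30744, 18912 and 15882, a mean of 23943 ± 7662 (SD, n = 4). In the 4 Sox9 High libraries they were 8584, 5955, 11810 and 8555, a mean of 8726 ± 2397 (SD, n = 4). Every Sox9 Negative library stood above every library of the other 7 populations on this scale. The 4 themselves split into a higher pair, numbers 1 and 2 on lane 5, and a lower pair, numbers 3 and 4 on lane 4. The part of the lane in this split was not tested.

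CD24Low followed with 6992, 5790, 6965 and 7281, a mean of 6757 ± 660 (SD, n = 4), and overlapped Sox9 High. The Sox9 Low libraries had 5121, 5526, 2989 and 5065, a mean of 4675 ± 1143 (SD, n = 4). Number 3 was the highest of the Sox9 High libraries and the lowest of the Sox9 Low ones. The 4 CD24Low libraries all stood above the 4 Sox9 Low ones on this scale. As a share of the library total, the ranges of these populations overlapped.

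The other 4 populations had still lower levels of miR-103-2-3p. Goblet libraries had 3761, 5997, 4836 and 2324, a mean of 4229 ± 1564 (SD, n = 4). The 2 Lgr5 High libraries, named for a receptor that marks crypt-base stem cells, had 3677 and 3650. The 6 Paneth libraries had a lowest value of 3070, a median of 3508 and a highest of 4219. These 3 populations overlapped, so their order is not resolved. The 3 Tuft libraries had 1595, 3774 and 1812, a mean of 2394 ± 1200 (SD, n = 3), and the highest of them lay among the Paneth values. From the highest to the lowest population mean the fold was 10.0.

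miR-107-3p had about the same order at lower levels. Its deposited values in the Sox9 Negative libraries were 6527, 6686, 3845 and 3977, a mean of 5259 ± 1559 (SD, n = 4). All 4 again stood above every other library, with those on lane 5 above those on lane 4. The Sox9 High libraries had 1527, 1456, 1851 and 1297, a mean of 1533 ± 233 (SD, n = 4). The Sox9 Low libraries had 2073, 1971, 788 and 1519, a mean of 1588 ± 585 (SD, n = 4). CD24Low had 1518, 1015, 1486 and 1725, a mean of 1436 ± 300 (SD, n = 4). These 3 populations overlapped, unlike Sox9 Negative above them.

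In Lgr5 High, miR-107-3p was at 1119 and 875. In the 6 Paneth libraries the lowest value was 699, the median 932 and the highest 1160. The Goblet libraries had 337, 681, 623 and 444, a mean of 521 ± 159 (SD, n = 4). All 6 Paneth libraries therefore lay above all 4 Goblet libraries. Tuft had 389, 241 and 328, a mean of 319 ± 74.5 (SD, n = 3), and overlapped Goblet. The fold from the highest to the lowest population mean was 16.5.

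**Figure D1:**
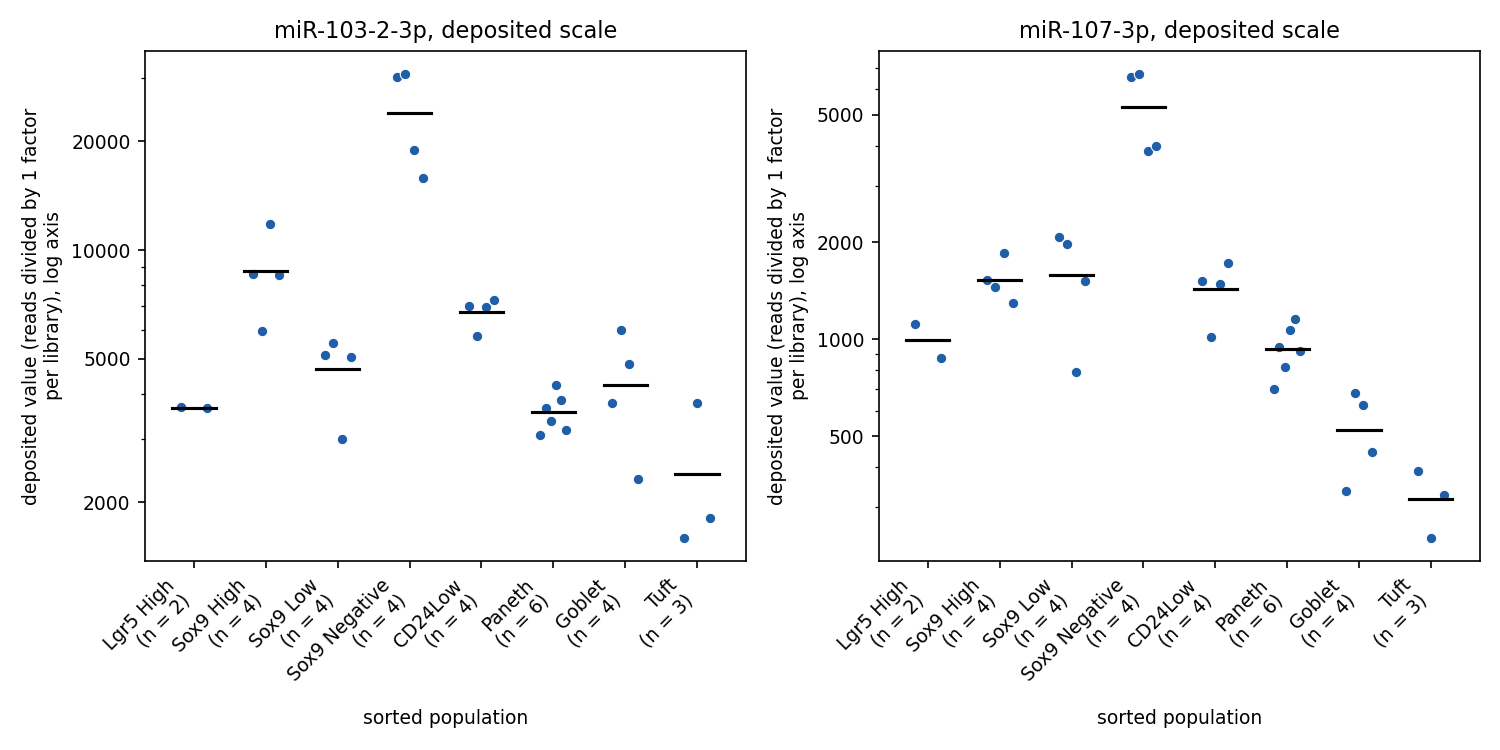
Deposited values of miR-103-2-3p (left) and miR-107-3p (right) on log axes, 1 point per library, in 8 sorted populations; black bars are means. The 4 Sox9 Negative libraries stand above all others in both panels, with means of 23943 and 5259.

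The depth behind these values differed widely. Library totals recovered from the table ran from 475678 reads in a Tuft library to 30958439 in a CD24Low library. miR-103-2-3p rested on 295 to 68395 reads per library and miR-107-3p on 35 to 16200. The fewest reads of miR-107-3p were 35 in a Tuft library, followed by 70 and 71 in Goblet libraries and 72 and 77 in the other Tuft libraries, so its values in these 2 populations are the least precise.

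The scale matters for the size of the Sox9 Negative difference. A single miRNA, miR-215-5p, took 46.0% of the library total in Sox9 Negative, 32.3% in Goblet and 28.9% in CD24Low, and at most 9.32% on average in the other populations. Expressed in RPM (reads per 1000000 of the library total), miR-103-2-3p averaged 2915 ± 591 in Sox9 High and 3645 ± 441 in Sox9 Negative (SD, n = 4 each), and these ranges overlapped. The fold from the highest to the lowest population mean of miR-103-2-3p was then 4.82. miR-107-3p averaged 519 ± 216 RPM in Sox9 Low and 804 ± 74.9 in Sox9 Negative (SD, n = 4 each), and here the ranges did not overlap. Sox9 Negative thus had the highest mean of both miRNAs on both scales, but its margin over Sox9 High was wide on 1 scale only.

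**Figure D2:**
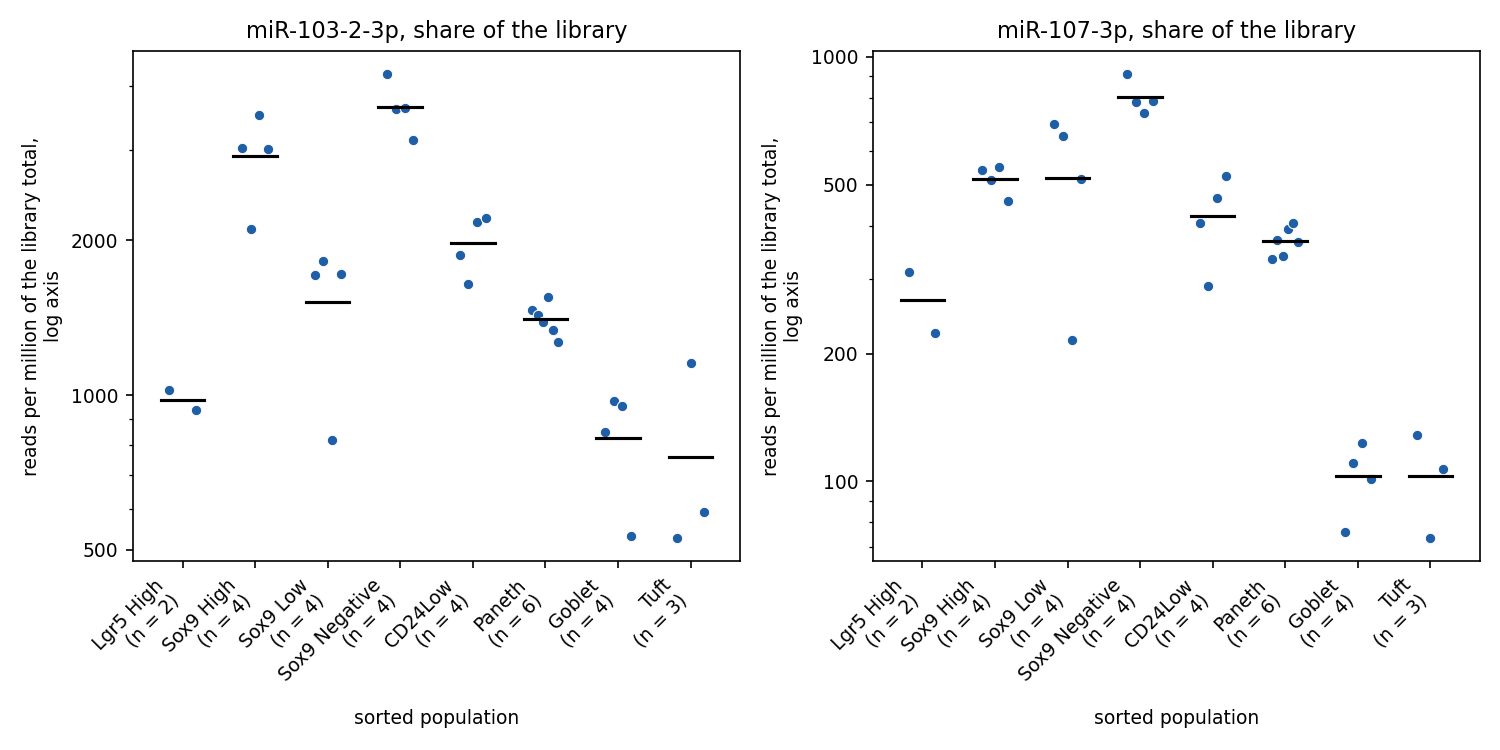
miR-103-2-3p (left) and miR-107-3p (right) in RPM, log axes, 1 point per library and bars at means. Sox9 High and Sox9 Negative overlap for miR-103-2-3p at means of 2915 and 3645, while Sox9 Negative stays apart for miR-107-3p.

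Each population was compared with the unweighted mean of the other 7 by limma on log2 of the deposited value, with Benjamini-Hochberg adjustment over the 473 entries tested and a call at adjusted p under 0.05. These 8 comparisons share their libraries, so a high Sox9 Negative level lowers the contrast of every other population. A large part of all entries was called: 46.5% in Sox9 Negative, 45.9% in Tuft, 46.5% in Goblet, 42.5% in Sox9 High, 41.4% in Paneth, 38.5% in Lgr5 High, 37.4% in CD24Low and 36.4% in Sox9 Low. A call alone is therefore common in these data, and the size of the change carries more.

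Both miRNAs rose in Sox9 Negative. miR-103-2-3p was higher than the mean of the other populations by 2.40 on the log2 scale (SE 0.22, adjusted p = 3.73e-10, limma), and higher in 4 of 4 libraries. miR-107-3p was higher by 2.51 (SE 0.22, adjusted p = 1.55e-10, limma). In RPM the same contrasts were 1.48 and 1.58, and both calls remained. In the Sox9 Negative libraries miR-375-3p, a miRNA known from endocrine cells, had values of 2964 to 5323, against at least 50257 in each library of the other populations. In sorted bulk samples, fewer cells of a type and less RNA per cell cannot be told apart.

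Both miRNAs fell in Tuft, miR-103-2-3p by 1.46 on the log2 scale (SE 0.25, adjusted p = 2.38e-05, limma) and miR-107-3p fell by 2.09 (SE 0.25, adjusted p = 9.47e-08, limma). The Tuft libraries had 475678 to 720400 reads each and the Goblet libraries 689763 to 1636615, below every library of the other populations. The Tuft and Goblet labels share their format with Paneth libraries 5 and 6 and give no lane. They do not say which libraries were sequenced together. The part of depth, or of a shared sequencing set, in the Tuft and Goblet results was not tested.

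The other calls fell on 1 of the 2 miRNAs on the deposited scale, a split that another scaling ends in Goblet, Paneth and Sox9 High. miR-107-3p had -1.31 in Goblet, a fall (SE 0.22, adjusted p = 1.2e-05, limma), where miR-103-2-3p had -0.49 and an adjusted p of 0.0703. In RPM, miR-103-2-3p in Goblet was -1.01 and called (adjusted p = 4.46e-05, limma). miR-103-2-3p fell in Paneth, with -0.69 (SE 0.18, adjusted p = 0.00309, limma), where miR-107-3p had -0.31 and an adjusted p of 0.189. In RPM, the Paneth contrast of miR-103-2-3p was -0.09 and not called. The summed leukocyte miRNAs miR-142-3p, miR-223-3p and miR-150-5p ranged from 0 to 404 in Paneth, with each of the 3 at a median of 0. They ranged from 0 to 19.6 in Lgr5 High and from 8.41 to 50.7 in CD24Low, and were at 0 in every Goblet, Sox9 and Tuft library. Stromal miRNAs (miR-145-5p, miR-199a-1-5p and miR-214-3p) summed to 60.5 to 216 in CD24Low and to 0 in every other library. The part of such cells in the CD24Low and Paneth levels was not tested. miR-103-2-3p rose in Sox9 High by 0.76 (SE 0.22, adjusted p = 0.0064, limma), where miR-107-3p had 0.52 and an adjusted p of 0.056. In RPM, miR-107-3p in Sox9 High was 0.85 and called (adjusted p = 0.0012, limma). Without Sox9 High number 3 the adjusted p of miR-103-2-3p was 0.0557, so that library decides the call on the deposited scale. In RPM with all libraries, miR-103-2-3p in Sox9 High was 1.09 and called (adjusted p = 2.83e-05, limma). Leaving out a library was not tried in RPM. Neither miRNA was called in Lgr5 High, CD24Low or Sox9 Low, and an unpassed test does not show that these populations equal the rest. That 1 miRNA was called and the other was not is no test of a difference between them.

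The 3 fractions named for the transcription factor Sox9 were set against each other. miR-103-2-3p was lower in Sox9 Low than in Sox9 Negative by a log2 fold change of -2.34 (95% interval -2.92 to -1.75, adjusted p = 1.26e-07, limma), and lower in Sox9 High than in Sox9 Negative by -1.44 (-2.03 to -0.85, adjusted p = 0.000134). miR-107-3p gave -1.77 (-2.36 to -1.19, adjusted p = 8.99e-06) for Sox9 Low and -1.74 (-2.33 to -1.16, adjusted p = 1.08e-05) for Sox9 High, both against Sox9 Negative. In the pair of Sox9 Low and Sox9 Negative 40.4% of all entries were called, and in the pair of Sox9 High and Sox9 Negative 44.4%. These fits had no block for the sample number. With that block in the 3 Sox9 fractions alone, the Sox9 High pair had larger adjusted p of 0.00368 for miR-103-2-3p and 0.000642 for miR-107-3p (limma). The calls of both pairs with Sox9 Negative remained. In RPM the differences were smaller. The Sox9 Low pair gave -1.32 for miR-103-2-3p (adjusted p = 5.43e-05) and -0.76 for miR-107-3p (adjusted p = 0.0234, limma), both still called. The Sox9 High pair gave -0.34 for miR-103-2-3p and -0.64 for miR-107-3p, and neither was called. The fractions were also run on different lanes: Sox9 Low on lane 1, Sox9 Negative on lanes 4 and 5, and Sox9 High on lane 2 except for number 3 on lane 1. Lane and fraction cannot be told apart in the Sox9 Negative pairs.

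Sox9 High and Sox9 Low were the only Sox9 pair with a lane number in common. The lane numbers come without a run, so an equal number need not mean the same lane. In this pair miR-103-2-3p was higher in Sox9 High by 0.90 on the log2 scale (95% interval 0.31 to 1.48, adjusted p = 0.0305, limma), and 14.4% of all entries were called. The same-numbered libraries of these fractions deviated together, and with the sample number as a block the difference was 0.90 with an adjusted p of 0.0501. Leaving out the 3 Sox9 libraries labelled HFD gave 0.54 with an adjusted p of 0.304. Among libraries with lane number 1, the single Sox9 High library had 11810 and the 4 Sox9 Low libraries 5121, 5526, 2989 and 5065. The value 2989 belongs to the library with the same sample number as that Sox9 High library. The call also went without Sox9 High number 1 (adjusted p = 0.0617), 3 (0.105) or 4 (0.0652), or without Sox9 Low number 3 (0.106). miR-107-3p differed by 0.03 (95% interval -0.55 to 0.62, adjusted p = 1), and by -0.37 without the HFD libraries.

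Lgr5 High cells were also compared with Sox9 Negative cells. miR-103-2-3p was lower in Lgr5 High with a log2 fold change of -2.65 (95% interval -3.37 to -1.93, adjusted p = 3.78e-07, limma), and miR-107-3p with one of -2.36 (-3.08 to -1.65, adjusted p = 2.26e-06). This pair called 43.8% of all entries, and both differences kept their direction and call in each of the 8 alternatives run. Lgr5 High was run on lane 8, so lane and population cannot be told apart here either. On the deposited scale Paneth and Goblet, a pair of secretory cell types, passed the test for miR-107-3p and not for miR-103-2-3p. miR-107-3p was higher in Paneth by 0.88 (95% interval 0.34 to 1.41, adjusted p = 0.00699, limma), in a pair where 41.2% of entries were called. In RPM this difference was 1.86 (adjusted p = 4.84e-07, limma). Paneth libraries 5 and 6, which share the format of their labels with the Goblet libraries, had 1160 and 918, against 337 to 681 in Goblet. For miR-103-2-3p the Paneth and Goblet difference was -0.18 (-0.71 to 0.36, adjusted p = 0.754) on the deposited scale, and it turned to 0.81 with an adjusted p of 0.0032 in RPM.

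**Figure D3:**
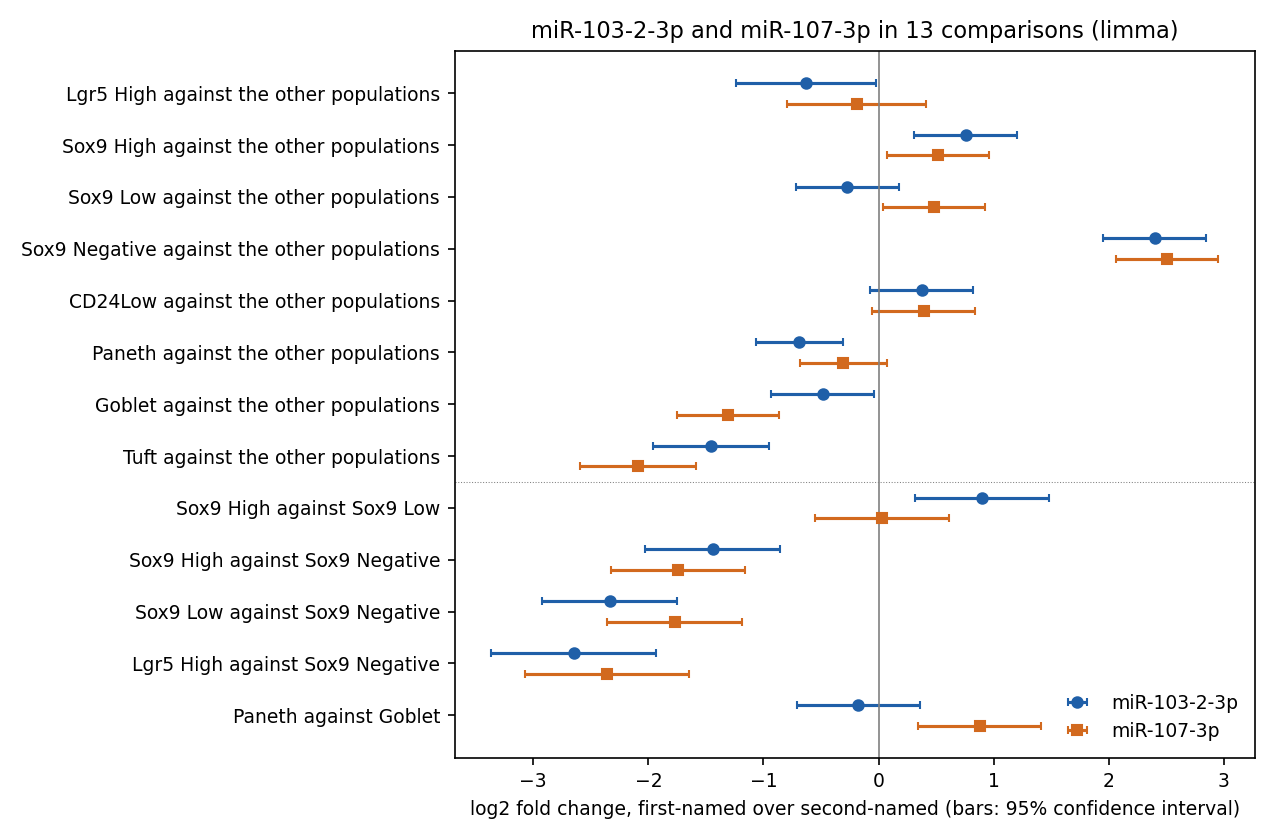
Log2 fold changes of miR-103-2-3p (circles) and miR-107-3p (squares) with 95% confidence intervals (limma, deposited scale), 8 populations against the mean of the rest and 5 pairs. Sox9 Negative lies at 2.40 and 2.51, Tuft at -1.46 and -2.09, and the 2 miRNAs stand apart most in Goblet, Sox9 High against Sox9 Low, and Paneth against Goblet.

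A ratio of the miRNAs within a library does not depend on the scaling factor, so it was described for each population. Reads that end before base 22 fit both miRNAs, and how they were counted is not known here. The ratio and the correlation below may therefore also depend on read length, which was not tested. Over the 8 population means of log2 values the 2 miRNAs had a Pearson correlation of 0.921, given as a description because the libraries and their scaling are shared. The ratio of miR-103-2-3p to miR-107-3p in the Sox9 High libraries was 5.62, 4.09, 6.38 and 6.59, a mean of 5.67 ± 1.13 (SD, n = 4). It had its lowest mean in Sox9 Low, with 2.47, 2.80, 3.79 and 3.34, a mean of 3.10 ± 0.58 (SD, n = 4). Every Sox9 High library lay above every Sox9 Low library.

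Sox9 Negative had ratios of 4.63, 4.60, 4.92 and 3.99, a mean of 4.54 ± 0.39 (SD, n = 4). It lay between the 2 other fractions and overlapped Sox9 High. Lgr5 High had 3.29 and 4.17, CD24Low 4.22 to 5.71, and Paneth 3.31 to 4.39. The Goblet libraries had the most uneven ratios among groups of 4, with 11.2, 8.80, 7.76 and 5.23, a mean of 8.24 ± 2.46 (SD, n = 4), and each stood above all 6 Paneth libraries. Tuft had 4.10, 15.7 and 5.53. The Tuft library at 15.7 rests on 35 reads of miR-107-3p. These ratios were chosen with the levels known and get no test.

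**Figure D4:**
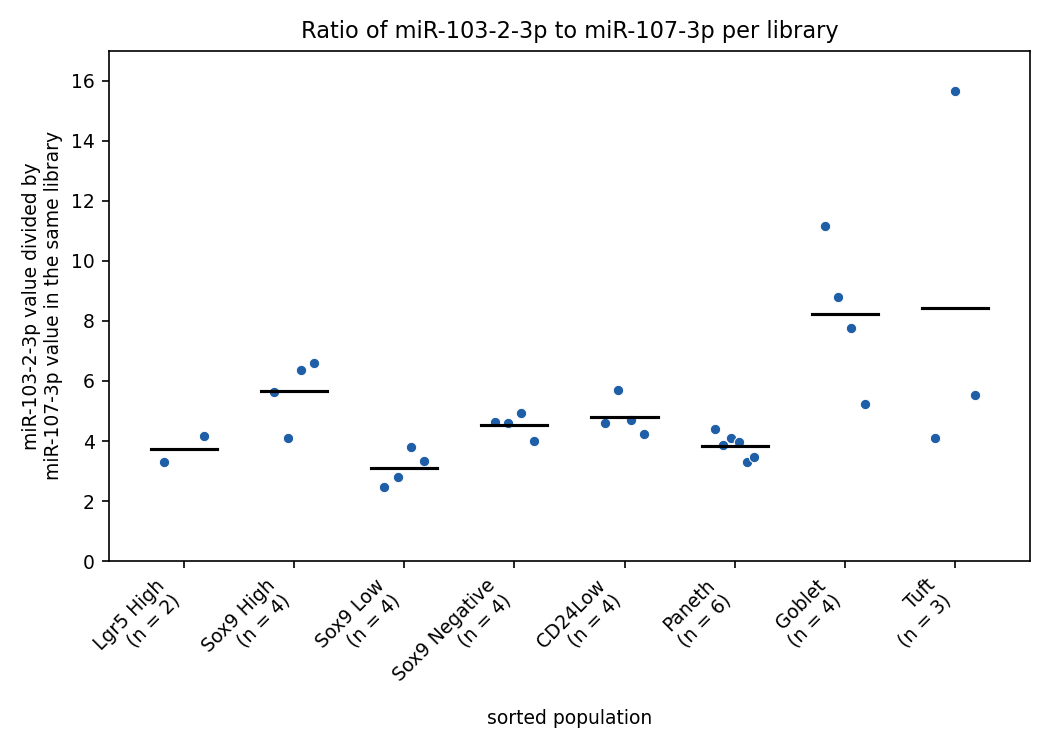
Deposited value of miR-103-2-3p divided by that of miR-107-3p in the same library, linear axis from 0, 1 point per library and bars at population means. Sox9 Low sits lowest (mean 3.10), Goblet libraries run from 5.23 to 11.2, and 1 Tuft library reaches 15.7.

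How even the 2 miRNAs were was set beside the other abundant entries. Among 91 entries without an offset that reached 100 in every library, the SD of the 8 population means on the log2 scale had a median of 0.73. miR-103-2-3p had an SD of 1.03, place 60 from the lowest, and miR-107-3p one of 1.20, place 72. On the deposited scale both were thus more uneven across these populations than most abundant miRNAs. The ranking was not made in RPM, where the fold from the highest to the lowest population mean was 4.82 for miR-103-2-3p and 7.83 for miR-107-3p.

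The entries whose population means were most like those of miR-103-2-3p were miR-31-5p (Pearson r = 0.949), miR-30e-3p (0.948), miR-378-3p (0.867), miR-194-2-5p (0.855) and miR-203-3p (0.819), of 88 entries compared over 8 populations. For miR-107-3p they were miR-30e-3p (0.925), miR-106b-3p (0.904), miR-93-5p (0.873), miR-98-5p (0.856) and miR-31-5p (0.829). miR-30e-3p and miR-31-5p stood in both lists. miR-31-5p was higher in Sox9 Negative than the mean of the other populations by 2.29 on the log2 scale, against 1.42 for miR-30e-3p.

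The table lists 26 entries of mir-103 and mir-107, of which 21 carry an offset from the annotated start. Only 3 were listed in all 31 libraries, namely miR-103-2-3p, miR-103-1-3p and miR-107-3p, and 16 were listed in fewer than 5. The 2 entries for the 5p strand were listed in 0 libraries. No value is listed under 10 reads, and 10 reads amount to a deposited value of 1.06 to 68.9 depending on the library, so an entry at 0 may hold up to 9 reads. The strand named 3p is therefore the arm seen here, and 5p reads were not detectable at this depth.

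An offset shifts the seed. If an offset of -1 means a start 1 base earlier, which the sources used here do not define, the shifted miR-103 takes the seed of the miR-15 and miR-16 group, shown here with capitals on the seed.
miR-103-3p, start -1: aAGCAGCAuuguacagggcuauga
miR-16-5p: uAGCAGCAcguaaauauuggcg
miR-15a-5p: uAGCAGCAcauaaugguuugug
The -1 entry of miR-103-2-3p was rare: in Sox9 Negative it averaged 38.8 ± 5.58 (SD, n = 4), or 0.162% of the entry without an offset. The +1 entry averaged 61.1 ± 11.6 and the +2 entry 80.9 ± 26.2 there (SD, n = 4 each). As a share of the offset and unshifted entries together, all offset entries of miR-103-2-3p averaged 1.49% in CD24Low, 0.791% in Sox9 Negative, 0.847% in Sox9 High and 0.560% in Paneth. Goblet and Tuft listed none, and there 10 reads amount to a deposited value of up to 68.9. Because this limit differs between libraries, the shares are not compared between populations.

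The miR-15 and miR-16 group, known for limiting cell-cycle genes, was read as a list because its seed overlaps that of miR-103. Of 7 listed entries 4 were tested, and of these miR-16-1-5p and miR-16-2-5p are 1 mature sequence. In Sox9 Negative 3 of 4 were higher, where 46.5% of all entries were called, with a median of 0.68 against -0.06 over all entries. In Tuft 3 of 4 were lower, where 45.9% were called, with a median of -0.99 against -0.14 over all entries. In Lgr5 High 3 of 4 were higher, where 38.5% were called, with a median of 0.64 against -0.06, and miR-15b-5p there changed by 1.62. miR-16-2-5p averaged 7046 ± 2155 in Sox9 Negative (SD, n = 4) and 2502 ± 618 in Tuft (SD, n = 3). In Lgr5 High it averaged 6700 ± 1474 (SD, n = 2). On the deposited scale miR-16-2-5p in Lgr5 High differed from Sox9 Negative by -0.03 (SE 0.30, adjusted p of 1, limma), where both members of the miR-103 group were lower. With 2 Lgr5 High libraries, this does not show equal levels. Library totals of deposited values were 3.59e+06 to 3.91e+06 in Lgr5 High and 5.06e+06 to 8.53e+06 in Sox9 Negative. The miR-16 difference was not tested in RPM. In Paneth miR-15a-5p alone was called, at 1.47, where 41.4% of all entries were. In CD24Low 2 of 4 were higher, where 37.4% of all entries were called, and in Goblet 1 of 4 was lower, where 46.5% were. In Sox9 High and Sox9 Low, where 42.5% and 36.4% were called, 0 of 4 were called by limma, with an unadjusted p under 0.05 for miR-15b-5p in Sox9 High only.

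The hosts were read in single cells, where the 10x libraries count the polyadenylated transcript and not the miRNA. The libraries hold 1209 and 7711 barcodes, share 0 of them, and have 1144 and 1470 cells with the authors' type names. The names held up against their markers in enterocytes (6 of 6 marker genes highest in the named type), goblet (6 of 6), Paneth, enteroendocrine (EEC) and tuft cells (5 of 5 each). They held up less well in the intestinal stem cells (ISC), with 3 of 5 because Lgr5 was highest in Paneth and Ascl2 in tuft cells, and in progenitors, with 2 of 4. The summed leukocyte markers stayed between 9.90 and 205 CPM (counts per 1000000) over the types, each of the 6 peaking in tuft or Paneth cells, and the summed stromal markers reached 0.142 CPM at most. Counts were summed per library and type, at least 23 cells each, and scaled by edgeR's TMM factors. Levels of different genes are not per length, and are compared between types only.

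Pank1, at chr19:34806940-34879455 on the minus strand, is the host of Mir107. It was highest in progenitors, at 26.8 and 34.4 CPM in the 2 libraries, from 189 and 533 UMIs. ISC had 20.8 and 30.8 CPM, and tuft cells 15.7 and 26.4 CPM. The ranges of these 3 types overlapped. Secretory progenitors had 18.4 and 22.2 CPM and enterocytes 16.7 and 17.6 CPM. Paneth cells had 9.02 and 14.96 CPM and EEC 9.33 and 13.5 CPM. Goblet cells were lowest on the TMM scale, with 7.59 and 9.43 CPM from 13 and 63 UMIs. On plain library totals Paneth cells were lowest, with 1.54 and 6.09 CPM.

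Against the mean of the other 7 types, Pank1 rose in progenitors by 0.97 on the log2 scale (SE 0.12, adjusted p = 1.16e-06, edgeR quasi-likelihood test), where 34.3% of all 11610 genes were called. It rose in ISC by 0.69 (SE 0.18, adjusted p = 0.00616), where 24.9% of genes were called, and without the library as a factor the adjusted p there was 0.089. In goblet cells it fell by 1.15 (SE 0.18, adjusted p = 2.28e-05), where 32.1% of genes were called. Tuft cells (0.38, adjusted p = 0.412, 10.7% of genes called), secretory progenitors (0.28, adjusted p = 0.239, 14.6%) and EEC (-0.63, adjusted p = 0.0778, 25.9%) did not pass.

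Pank3, at chr11:35769484-35791285 on the plus strand, is the host of Mir103-1. It was highest in enterocytes, the absorptive cells, at 88.8 and 79.1 CPM from 537 and 1265 UMIs. Progenitors had 47.8 and 50.7 CPM, below both enterocyte values and above every other type. The remaining types were closer together: secretory progenitors 31.4 and 39.3 CPM, EEC 34.6 and 35.3 CPM, and tuft cells 33.1 and 32.1 CPM. ISC had 28.9 and 30.3 CPM and goblet cells 23.9 and 34.7 CPM. Paneth cells were lowest, with 20.0 and 19.9 CPM.

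Pank3 rose in enterocytes by 1.38 on the log2 scale (SE 0.11, adjusted p = 7.04e-11, edgeR quasi-likelihood test), where 60.8% of all genes were called. It rose in progenitors by 0.50 (SE 0.11, adjusted p = 0.00125), and by 0.83 with plain library totals, beside a shift of 0.32 in the median of all genes. In Paneth cells it fell by 1.00 (SE 0.19, adjusted p = 0.000341), where 25.3% of genes were called. Paneth sums have TMM factors of 0.170 and 0.408, and with plain library totals the Paneth value was -3.10, beside a shift of -2.10 in the median of all genes. Pank1 in Paneth cells was -0.53 with an adjusted p of 0.0934, and was called, at -2.60, on plain totals only.

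The 2 hosts had different orders over the cell types, with a Pearson correlation of 0.363 over 8 types. The ratio of Pank3 to Pank1 UMIs was 5.32 and 4.49 in enterocytes in the 2 libraries, against 1.39 and 0.982 in ISC and 1.78 and 1.47 in progenitors. In goblet cells it was 3.15 and 3.68, with goblet Pank1 low and goblet Pank3 near the level of ISC. EEC had 3.71 and 2.61. Secretory progenitors had 1.70 and 1.77. Enterocytes, goblet cells and EEC thus stood above the stem and progenitor types in both libraries. Paneth cells (2.22 and 1.33) and tuft cells (2.11 and 1.22) did not: they lay above both progenitor types in library 1 and below them in library 2.

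**Figure D5:**
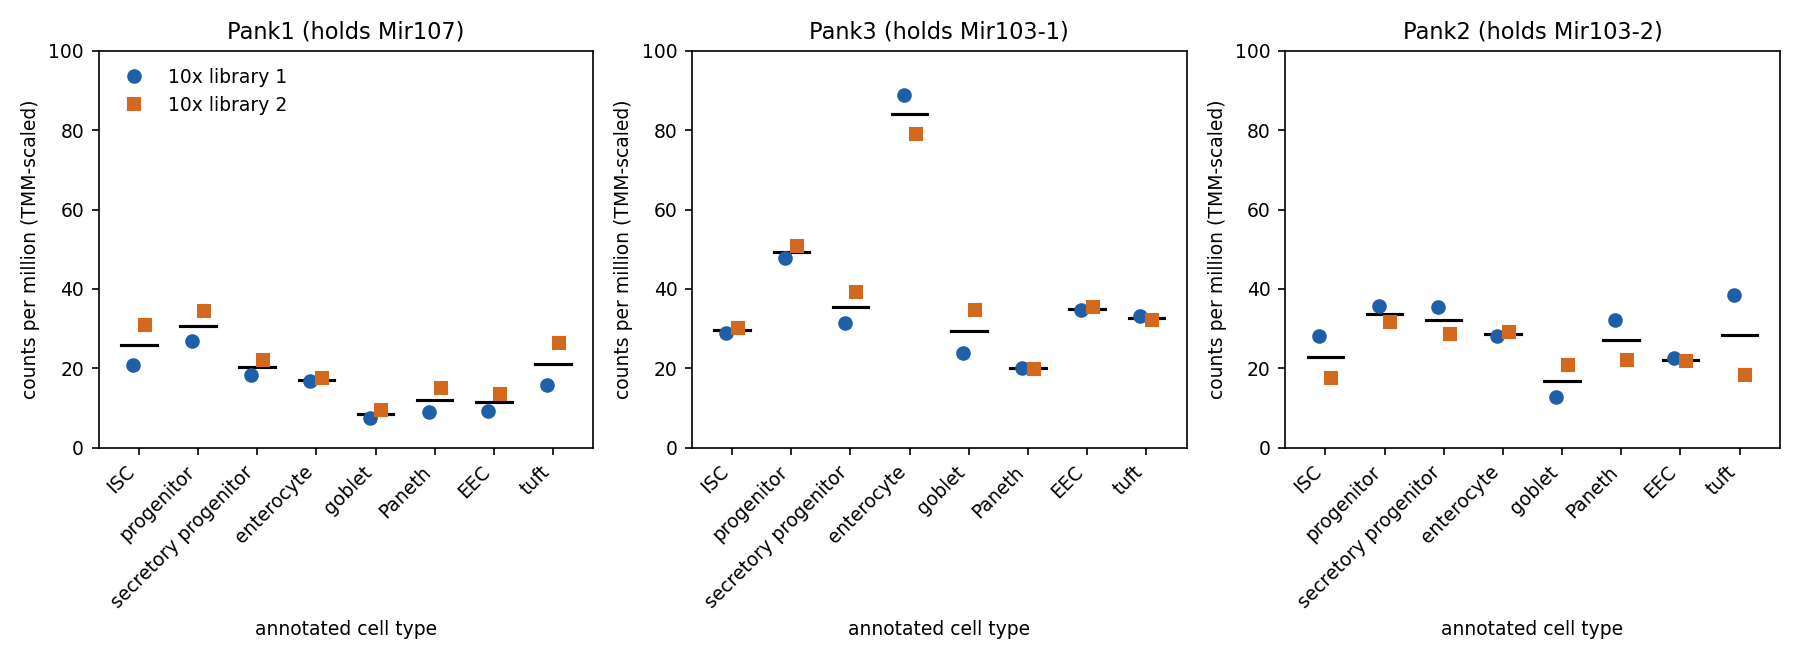
TMM-scaled CPM of Pank1, Pank3 and Pank2 in 8 annotated cell types, linear axes from 0, circles for 10x library 1, squares for library 2 and bars at means. Pank3 stands out in enterocytes (88.8 and 79.1 CPM), Pank1 is highest in progenitors (26.8 and 34.4 CPM), and Pank2 is the most even.

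Pank2, the host of Mir103-2 at chr2:131262495-131299188 on the plus strand, encodes the pantothenate kinase that in humans is found in mitochondria. It averaged between 33.6 CPM in progenitors and 16.9 CPM in goblet cells. It rose in progenitors by 0.42 (SE 0.14, adjusted p = 0.0235, edgeR) and fell in goblet cells by 0.51 (SE 0.18, adjusted p = 0.0357). Both calls were lost in some alternatives. In progenitors DESeq2 gave Pank2 0.30 with an adjusted p of 0.284, and edgeR without the library as a factor an adjusted p of 0.266. In goblet cells the adjusted p was 0.131 without the library as a factor and 0.0664 with plain library totals, and the fold change was -1.24 in 10x library 1 alone and -0.17 in library 2 alone. Pank3 had -0.28 in goblet cells, with an adjusted p of 0.134. The correlation of Pank2 with Pank1 over the types was 0.698. Pank4, a family member with no miRNA of this group, fell in enterocytes by 0.89 (SE 0.27, adjusted p = 0.00606).

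The sorted populations and the annotated types come from separate libraries and different ways of naming cells, so they are only set side by side. miR-107-3p averaged 935 in Paneth and 521 in Goblet, while Pank1 had 9.02 and 14.96 CPM in Paneth cells and 7.59 and 9.43 CPM in goblet cells, where the ranges overlap. The Pank1 order depends on the Paneth TMM factors. On plain library totals it had 1.54 and 6.09 CPM in Paneth cells, below goblet cells with 7.07 and 9.48 CPM. On the deposited scale Tuft is lowest in both miRNAs, while in RPM miR-107-3p ran from 73.6 to 129 in Tuft and from 76.0 to 123 in Goblet, where the mean was slightly the lower. Annotated tuft cells had 15.7 and 26.4 CPM of Pank1 and 33.1 and 32.1 CPM of Pank3, neither lowest. Lgr5 High had deposited values of 1119 and 875 of miR-107-3p, among those of Paneth. In RPM it had 312 and 224, below all 6 Paneth libraries at 334 to 405. ISC had 20.8 and 30.8 CPM of Pank1, above both Paneth values. Sox9 Negative matches no annotated type by name.

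Genes for coenzyme A synthesis and turnover were counted as a list around the pantothenate kinases: 16 of 17 passed the filter on low counts, and Vnn3, with 7 UMIs, did not. In enterocytes 7 were higher and 3 lower, 10 of 16 where 60.8% of all genes were called, a share near the background. The median was 0.11 against -0.04 over all genes. The higher ones were the vitamin B5 transporter Slc5a6 (1.05), Pank3, Ppcs (1.28), which acts in the second step, the final bifunctional enzyme Coasy (0.74), the coenzyme A hydrolases Nudt7 (1.71) and Nudt19 (0.95), and Vnn1 (4.51), which recovers vitamin B5 from pantetheine. The lower ones were Pank4, Dcakd (-0.68) and Aasdhppt (-0.65), which moves the phosphopantetheine group onto carrier proteins. Ppcdc, the decarboxylase between Ppcs and Coasy, had -0.26 and did not pass.

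In progenitors 6 of 16 were higher and 0 lower, where 34.3% of all genes were called in either direction: Pank1, Pank2, Pank3, Slc5a6 (0.80), Nudt19 (0.82) and Aasdhppt (0.32). The median there was 0.21 against 0.10 over all genes. In ISC 3 were higher (Pank1, Nudt19 at 0.75 and Aasdhppt at 0.78) and 0 lower, where 24.9% of genes were called. In goblet cells 0 were higher and 5 lower, namely Pank1, Pank2, Slc5a6 (-0.78), Dcakd (-1.01) and Nudt19 (-0.33), with a median of -0.31 against 0.00 over all genes, where 32.1% of genes were called. These shares too lie near the background or below it. In Paneth cells 1 was higher (Nudt8 at 0.71) and 5 were lower, namely Pank3, Ppcs (-0.59), Slc5a6 (-1.14), Nudt7 (-1.12) and Nudt19 (-1.06), with a median of 0.01, where 25.3% of genes were called. The Paneth values depend on the TMM factors: on plain library totals Nudt8 had 7.51 and 12.6 CPM there, below every other type. EEC had 2 lower (25.9% of genes called), tuft cells 1 (10.7%), and secretory progenitors 0 in either direction (edgeR, 16 genes, 14.6% of genes called), where Ppcs and Nudt7 had an unadjusted p under 0.05.

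Published targets of miR-103 and miR-107 could be read for 5 of 9 genes, because Cav1 had 0 UMIs and Dapk1, Cdk5r1 and Lats2 had 4, 41 and 60. In enterocytes 3 of 5 were lower and 0 higher, a share near the 60.8% of all genes called there, with a median of -0.69 against -0.04 over all genes. They were the cell-cycle kinase Cdk6 (-2.46, adjusted p = 3.97e-11, edgeR), the Wnt feedback gene Axin2 (-1.59) and the transcription factor Klf4 (-0.69). In Paneth cells, where 25.3% of genes were called, Cdk6 (1.29), Axin2 (1.20) and Klf4 (1.15) were higher. These rises depend on the Paneth TMM factors of 0.170 and 0.408. With TMM, Cdk6 had 56.1 and 62.0 CPM in Paneth cells and 40.4 and 33.9 CPM in progenitors. On plain library totals it had 9.55 and 25.3 CPM in Paneth cells, below progenitors (47.3 and 43.2) and above enterocytes in both libraries (5.95 and 6.20). In goblet cells (32.1% of genes called) Klf4, a goblet cell regulator, was higher by 3.06, and Axin2 (-2.27) and Cdk6 (-0.64) were lower. In ISC (24.9% called) Cdk6 (1.82) and Axin2 (1.67) were higher and Klf4 (-2.64) was lower. Dicer1, the miRNA-processing enzyme, and Arnt passed the edgeR test in 0 of 8 types, and had an unadjusted p under 0.05 in 1 and in 3 types. These 5 genes did not move as a group, and the list is too short to set against the miRNAs.

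By likeness of CPM over the 8 types, of 2185 genes compared, Pank1 was nearest to Mbnl1 (r = 0.974), a splicing regulator, Nfib (0.962), a transcription factor, Vps36 (0.945), Xrn2 (0.928), a nuclear exoribonuclease, and Arpp19 (0.922). Pank3 was nearest to Hadha (0.965), a subunit of the mitochondrial enzyme of fatty acid oxidation, Ahcyl2 (0.965), Cds1 (0.961), which makes CDP-diacylglycerol, Glod5 (0.953) and Prpsap1 (0.952). The 2 lists share no gene. With 8 points and 2185 genes searched, high correlations are easily found, and they are given as a description.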

How the data were processed

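Small RNA values were deposited by the authors as a signal: reads divided by 1 factor per library, as the values show. The submitters' processing notes name genome build mm9, while no source used here gives the aligner or the counter. Columns of 31 of 34 small RNA libraries could be matched; 3 Progenitor libraries are not analysed here and 3 columns were not used. Values under 100 were raised to 100, and the 473 entries above 100 in at least 2 libraries were fitted with limma 3.58.1 (trend). The raw UMI counts per cell were deposited by the authors as 10x matrices with cell type names, which were used as given; no doublet caller was run. Sums per library and type were tested with edgeR 4.0.16 (quasi-likelihood, TMM, filterByExpr, type and library as factors). Adjusted p under 0.05 was a call. Both steps were checked on simulated data. Alternatives were other floors, filters, scalings and blocks, DESeq2 1.42.0, and leaving out each library. Libraries of 1 number share a code in the labels across all Sox9 fractions, Sox9 Negative included. Those of Sox9 High and Sox9 Low had residual correlations of 0.201 to 0.532 and count as paired. Pairs with Sox9 Negative ran from -0.330 to 0.555 and did not all exceed 0.1. The members, the lists and the rule for the named genes (members, hosts, lists, and the 5 most alike) were chosen with earlier results of these data known.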

Additional observations from a re-analysis of the deposited data

How the results depend on the processing

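The rises in Sox9 Negative and the falls in Tuft of both miRNAs, the fall of miR-107-3p in Goblet, both Lgr5 High differences, both Sox9 Low differences from Sox9 Negative and the calls of Pank3 kept their direction and their call in every alternative run, though the Sox9 Negative rises and the Sox9 Low differences shrank by over 1.5 times on rescaling to the library total. The Paneth and Goblet difference of miR-107-3p grew to 1.86 there. Values are log2 fold changes.

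Rescaling to the library total gave, for miR-103-2-3p, -1.01 in Goblet and -0.68 in Lgr5 High, both then called, -0.087 in Paneth and -0.34 in Sox9 High against Sox9 Negative, both then not called, and a turn to 0.81 in Paneth against Goblet. For miR-107-3p it gave 0.29 in Paneth, a turn, 0.85 in Sox9 High and 0.71 in Sox9 Low, both then called, and -0.64 in Sox9 High against Sox9 Negative (adjusted p = 0.0503). That scaling shifted the median of all entries by -0.19 to 0.18 and moved the share of higher calls by over 10 points in 10 of 13 comparisons, for example to 25.7% in Sox9 Negative, where the deposited scale gives 54.5%, and to 68.9% in Paneth, where it gives 35.7%. TMM on recovered reads gave 0.52 in CD24Low and -0.76 in Goblet for miR-103-2-3p and 0.70 in Sox9 High for miR-107-3p, all then called, and 0.15 in Paneth against Goblet for miR-103-2-3p, a turn. The median ratio gave 0.56 in Sox9 High for miR-107-3p, then called. Without the libraries labelled HFD, miR-103-2-3p had -0.51 in Goblet, then called, 0.55 in Sox9 High and 0.54 in Sox9 High against Sox9 Low, neither then called, and miR-107-3p had 0.78 in Sox9 Low, then called, and -0.37 in Sox9 High against Sox9 Low, a turn. The last pair for miR-103-2-3p was not called with no filter (0.90, adjusted p = 0.0865), with the replicate block (0.90, adjusted p = 0.0501) or with the replicate block within the Sox9 fractions (0.90, adjusted p = 0.0713); the block changed no other call.

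In single cells, plain totals moved the median of all genes by -2.10 in Paneth cells to 0.67 in EEC. They gave Pank3 0.61 in EEC, 0.34 in secretory progenitors and 0.39 in tuft cells, and Pank1 0.029 in EEC and 0.00070 in enterocytes, all turns of uncalled values, and Pank1 -2.60 in Paneth cells, then called. Pank2 turned to 0.44 in EEC, 0.047 in ISC and -2.12 in Paneth cells. With no filter on low counts Pank1 was 0.037 in enterocytes and Pank2 -0.020 in Paneth cells. DESeq2 gave Pank3 0.034 in EEC. Without the library as a factor (no replicate block) Pank1 in ISC was 0.68 and Pank2 0.43 in progenitors and -0.64 in goblet cells, none then called. Pank2 was also not called with DESeq2 in progenitors (0.30) or with plain totals in goblet cells (-0.66), and was called with plain totals in secretory progenitors (0.72). The cause of these changes was not tested.

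Leaving out 1 library at a time, miR-103-2-3p ranged from -0.68 (without number 2, then called) to -0.23 in Goblet, from 0.60 (without number 3, not called) to 0.93 in Sox9 High, from 0.70 to 1.07 in Sox9 High against Sox9 Low and from -0.44 to 0.020 (without Goblet 2) in Paneth against Goblet. miR-107-3p ranged from 0.32 to 0.79 (without number 3, then called) in Sox9 Low and from -0.27 to 0.19 in Sox9 High against Sox9 Low. With 1 10x library alone, which allows no test, Pank1 ranged from -0.17 to 0.25 in enterocytes, Pank3 from -0.17 to 0.083 in secretory progenitors, and Pank2 from -1.24 to -0.17 in goblet cells, from -0.45 to 0.018 in ISC, from -0.081 to 0.23 in Paneth cells and from -0.38 to 0.52 in tuft cells.

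Without the floor of 100 more entries were tested and called in all 13 comparisons, for example up to 426 in CD24Low (177 with the floor), 433 in Sox9 Negative (220), 532 in Tuft (217) and 136 in Sox9 High against Sox9 Low (68). With neither the floor nor the filter 1014 of 2670 entries were called in CD24Low. Without 1 Lgr5 High library 95 or 102 entries were called in Lgr5 High (182 with both). Without the library as a factor fewer genes were called in all 8 cell types, for example 1300 in progenitors (3986 with it) and 1137 in ISC (2890), and plain totals called 10107 genes in Paneth cells (2942 with TMM). Reads recovered from the table were not put through a count test, which was not run because the smallest listed value is 10 reads. A minimum of 3 cells per type left the same 8 types, since the fewest is 23. Depth limits miR-107-3p in Tuft and Goblet and every offset entry.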
